A study of Rattus norvegicus with 6 samples.

Results

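The mature arms of the miR-139 hairpin, rno-miR-139-5p and rno-miR-139-3p, were followed probe by probe and spot by spot in arterial and venous plasma. They are 2 of the rat microRNAs on the array, of which 201 were detected on at least 1 of the 6 arrays and 557 on none, and they were found by their names among its 1806 probes. Both were picked because the study placed the 3p arm on the arterial and the 5p arm on the venous side of its list, which was computed from these same samples, so their arterial-venous differences are given here as a description and were not tested. The samples came from 3 healthy, untreated male Sprague-Dawley rats aged 10 weeks. From each rat, plasma of the abdominal aorta (arterial) and of the postcava (venous) was collected with EDTA, centrifuged and filtered. RNA of each of the 6 plasma samples was labelled with Cy3 and hybridized to 1 single-colour Agilent array. The sample titles give a replicate number, which was read as the rat number to pair the samples. All animals shared strain, sex and age, and the vessel is the difference that the labels give between the groups. Whether both vessels of a rat were sampled in the same order is not given in the sources used here.

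A microRNA hairpin is processed to a short duplex, and one or the other arm is loaded into an Argonaute protein and pairs with messenger RNAs through its seed, the bases 2 to 8 from the 5′ end. The miR-139 gene, Mir139, lies within the span of Pde2a, the gene of phosphodiesterase 2A, which degrades cyclic nucleotides. The 5p arm is known as a repressor of growth and cytoskeletal regulators such as Igf1r and Rock2. In plasma, microRNAs circulate in vesicles and bound to proteins, and they come from blood cells and many tissues, so a plasma level does not name its source.

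The sequences are shown because the array reads the arms separately, each with its own pair of probes. In the GRCr8 assembly RefSeq places the hairpin on the plus strand at chr1:165290859-165290926, with the 5p arm at chr1:165290865-165290886 and the 3p arm at chr1:165290901-165290922. The array design names an older build, from which no coordinates are used. The first line gives the hairpin with both mature arms in capitals, and the others give each mature arm with its seed in capitals, all 5′ to 3′ from RefSeq.
Mir139 hairpin: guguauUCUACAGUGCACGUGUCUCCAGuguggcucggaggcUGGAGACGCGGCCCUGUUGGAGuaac
rno-miR-139-5p: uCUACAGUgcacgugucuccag
rno-miR-139-3p: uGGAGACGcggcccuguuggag
Both arms have 22 bases, at positions 7 to 28 and 43 to 64 of the 68-base hairpin. The longest unbroken Watson-Crick pairing between them has 7 bases. The 3p arm is rich in G and C (68.2%), and 95.6% of the 685 array microRNAs that matched the RefSeq table by name had a lower share. The 5p arm had 54.5% G and C, with 70.4% below it. No other mature microRNA of that table, which holds 693 names, carries the seed GGAGACG or CUACAGU. The longest run of bases that the 3p arm has in common with another array microRNA is 8 (rno-miR-130b-5p), and for the 5p arm it is 9 (rno-miR-17-5p and rno-miR-770-5p).

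On every array each arm was read by 2 probes with 8 spots each, which gives 32 spots for the hairpin and 192 over the 6 arrays. Feature Extraction, the program that reads the scanned image, called 137 to 175 microRNAs detected on an array. Over the 126 microRNAs that were detected on each of the 6 arrays, the median intensity was 35.4, 41.8 and 30.1 on the arterial arrays (rats 1, 2 and 3) and 21.8, 52.9 and 17.2 on the venous arrays, so that the arterial array was the brighter one in rats 1 and 3 and the dimmer one in rat 2. Arrays of rats 1 and 2 lay on 1 slide and those of rat 3 on another, so that slide did not separate the vessels.

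The 3p arm gave a clear signal in all 6 samples and was brighter in the arterial plasma of every rat. Of its 96 spots, 68 were well above background, 6 were flagged as outliers and none was saturated. Well above background here is the scanner program's own flag for a spot that stands clear of background. By vessel, 44 of 48 arterial spots and 24 of 48 venous spots had this flag.

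All 48 spots of probe A_26_P00001372 were well above background. Processed intensity is the value after Feature Extraction subtracted its own background estimate, before any scaling between arrays. For this probe it was 87.0 ± 4.02 (SD, 8 spots), 68.9 ± 3.16 and 69.0 ± 3.67 on the arterial arrays of rats 1, 2 and 3. On the venous arrays it was 28.7 ± 2.36, 32.3 ± 3.21 and 15.1 ± 2.67. The dimmest arterial spot read 61.9 and the brightest venous spot 38.6, so that no spot of the arterial arrays overlapped any of the venous arrays. The arterial value was 3.03, 2.13 and 4.56 times the venous one in rats 1, 2 and 3. In the same rats the whole array was 1.62, 0.79 and 1.75 times as bright in arterial plasma, judged by the median of the 126 microRNAs, so in rat 2 the probe was brighter on the dimmer array. The SD over the 8 spots was 4.58 to 5.33% of the mean on the arterial arrays and 8.21 to 17.7% on the venous ones, and it covers technical spread on an array and not the spread between rats.

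Probe A_26_P00001371, the second probe of the 3p arm, was well above background in arterial plasma only. It read 19.9 ± 3.52 (SD, 8 spots), 13.2 ± 1.24 and 12.3 ± 2.89 in arterial plasma and 5.73 ± 1.74, 7.84 ± 2.93 and 3.12 ± 2.06 in venous plasma of rats 1, 2 and 3. Over all arrays its arterial spots ranged from 7.73 to 26.1 and its venous spots from -0.739 to 12.3, so that the groups overlapped at the level of single spots, although the array means did not. On the arterial arrays 8, 5 and 7 of its 8 spots were well above background, and on the venous arrays none. The venous level of this probe is therefore only a bound. After quantile normalization over all 1806 probes, the probe was at least 1.1-fold higher in arterial plasma in the mean of the 3 rats. Its measured normalized means were 3.77 ± 0.13 in arterial and 2.42 ± 0.36 in venous plasma (log2, SD, n = 3 rats). For the bound, a probe was well above background on an array when its unflagged spots with this flag were no fewer than those without. A venous value under the dimmest such probe of its array was raised to that probe's level. The arterial log2 values were 3.84, 3.62 and 3.84 in rats 1, 2 and 3, beside raised venous levels of 3.87, 3.14 and 3.89. They lay above the raised level in rat 2 only, so the bound in the mean rests on that rat.

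When each spot was set against the spot at the same place on the other array of the rat, the 3p arm gave one answer. Both probes were brighter in arterial plasma at 8 of 8 places in rat 1, in rat 2 and in rat 3, which is 48 of 48 places over both probes. The count was also 48 of 48 in the median spot signal, which still holds the background, and 42 of 42 when places with an outlier flag on either array were left out. These signals are not scaled between arrays, and the arterial array as a whole was the brighter one in rats 1 and 3 and the dimmer one in rat 2. Such places were not counted for probes of other microRNAs. The spots of an array share 1 plasma sample and are not replicates of a vessel.

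**Figure D1:**
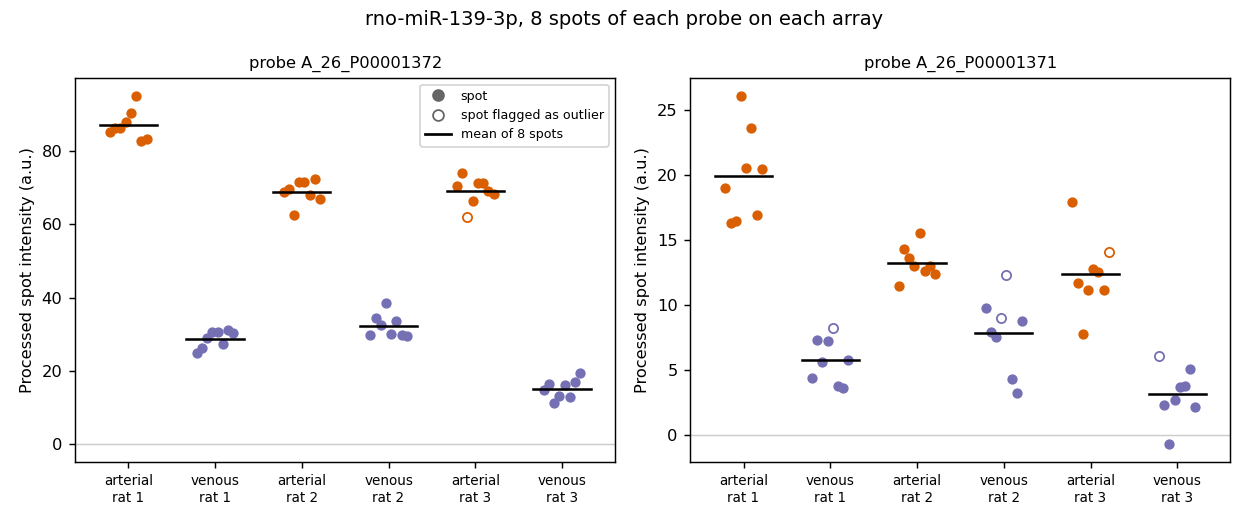
Processed intensity (arbitrary units) of each of the 8 spots of both rno-miR-139-3p probes on the 6 arrays, with arterial spots in orange and venous spots in violet, open circles for spots flagged as outliers and lines for the mean of the 8 spots. For probe A_26_P00001372 the lowest arterial spot is 61.9 and the highest venous spot 38.6, while the spots of probe A_26_P00001371 range from -0.739 to 26.1 and overlap between vessels.

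To compare levels across arrays, each probe was given the mean of its unflagged spots and each microRNA the mean of its probes. Quantile normalization of the 6 arrays followed, and the log2 was taken with values under 1 set to 1. On this scale rno-miR-139-3p stood at 5.57, 4.99 and 5.52 on the arterial arrays of rats 1, 2 and 3. It stood at 4.77, 3.92 and 3.92 on the venous arrays, so that the lowest arterial value lay above the highest venous one. The arterial level was 1.75, 2.1 and 3.02 times the venous level in rats 1, 2 and 3. The mean log2 difference (arterial minus venous) was 1.16 ± 0.40 (SD, n = 3 rats). By probe, with normalization over probes, the differences in rats 1, 2 and 3 were 0.78, 1.34 and 1.47 for A_26_P00001372, and 1.02, 1.32 and 1.71 for A_26_P00001371, whose venous values are not well above background. Both probes were higher in arterial plasma in all 3 rats, and the order of the rats by the size of the gap changed with the scaling and the spots used. Among arterial samples the 3p arm varied by 0.58 between rats and among venous samples by 0.85 on the log2 scale, and the difference between vessels was 0.80, 1.07 and 1.59 within rats.

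As background over the whole array, 6 of all microRNAs (0.792%) passed the study's cutoff, an unadjusted p of 0.025, in limma with the rat as a block, of which 4 (0.528%) had the higher level in arterial and 2 (0.264%) in venous plasma. None of all microRNAs passed a Benjamini-Hochberg adjusted p of 0.05 in limma, while 12 had an unadjusted p of 0.05 or less. Arterial values above all venous values, as in the 3p arm, were seen for 6 of all microRNAs (0.792%) and for 3 of the 126 detected on every array (2.38%). Of these 126, 12 (9.52%) were higher in arterial plasma in all 3 rats. Since the arms were chosen by this contrast, nothing is read from their own place among these counts.

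The 5p arm was at or near background in all 6 samples. Only 1 of its 96 spots was well above background, on the arterial array of rat 3, and 14 were flagged as outliers. Feature Extraction called it detected in the arterial plasma of rat 3 and the venous plasma of rat 2, and in the other 4 samples it did not. A weaker flag, for a spot with a positive and significant signal, was set for 67 of the 96 spots of the 5p arm and for 95 of the 96 spots of the 3p arm.

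Its probe A_26_P00001368 read 7.84 ± 1.52 (SD, 8 spots), 7.34 ± 2.49 and 7.08 ± 3.54 on the arterial arrays of rats 1, 2 and 3. In venous plasma it read 4.30 ± 1.88, 10.4 ± 1.97 and 3.92 ± 1.91. The arterial arrays were thus alike, and the venous ones lay on both sides of them, with rat 2 brighter and rats 1 and 3 dimmer, the same directions as the median of the 126 microRNAs took in those rats. Of its 8 spots, 8, 7 and 7 on the arterial arrays and 5, 8 and 3 on the venous arrays exceeded the 95th percentile of the 434 negative control spots of the same array, which lay between 3.49 and 4.83.

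The other probe, A_26_P00001367, had no spot well above background among its 48. It read 2.44 ± 1.63, 2.51 ± 3.68 and 2.41 ± 1.33 (SD, 8 spots) in arterial plasma and 1.79 ± 1.93, 4.45 ± 3.18 and 1.11 ± 1.54 in venous plasma of rats 1, 2 and 3. Between 1 and 4 of 8 spots on an array exceeded the 95th percentile of the negative controls. Feature Extraction's own error for these spots averaged 1.88 to 2.78 on an array, beside means of 1.11 to 4.45.

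**Figure D2:**
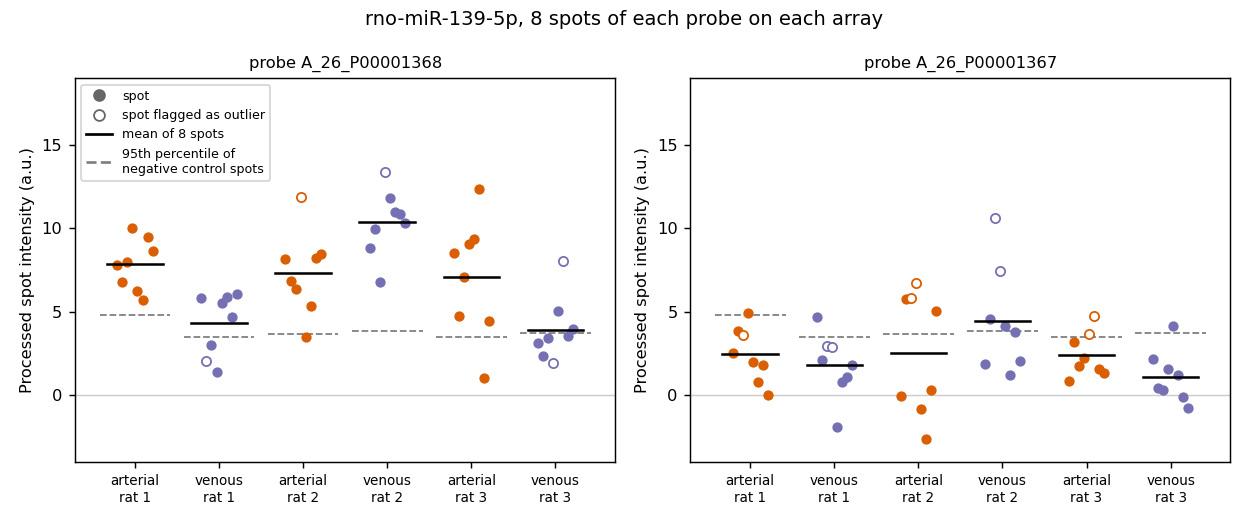
Processed intensity (arbitrary units) of each of the 8 spots of both rno-miR-139-5p probes on the 6 arrays, with arterial spots in orange, venous spots in violet, open circles for flagged spots, black lines for the mean of the 8 spots and dashed lines for the 95th percentile of the negative control spots of the array (3.49 to 4.83). Probe A_26_P00001368 stays under 13.4 everywhere, and at most 4 of 8 spots of probe A_26_P00001367 lie above the dashed line of an array.

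Normalized as above, rno-miR-139-5p stood at 1.90, 1.85 and 2.37 in the arterial and 2.11, 2.20 and 1.90 in the venous plasma of rats 1, 2 and 3 (log2). The groups overlapped, and the differences within rats were -0.22, -0.35 and 0.47, with a mean of -0.03 ± 0.44 (SD, n = 3 rats). No fold is given, because neither probe was well above background in either vessel by the rule used for the 3p probes. Spot by spot, the 5p arm was brighter in arterial plasma at 28 of 48 places over both probes in processed intensity, unscaled between arrays. In the median spot signal it was at 23 of 48, and the other places were brighter in venous plasma or equal. For A_26_P00001367 that signal was higher in arterial plasma at 9 of 24 places, in venous plasma at 10, and equal at 5. For A_26_P00001368 these counts were 14, 9 and 1. In rats 1 and 3 the arterial array as a whole was also the brighter one, and in rat 2 the dimmer one. In processed intensity, probe A_26_P00001368 was brighter in arterial plasma at 7 of 8 places in rats 1 and 3 and at 0 of 8 in rat 2.

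The study's own table of quantile-normalized intensities gave the 5p arm a venous lead in all 3 rats, and the spots show where it lies. Within each array, that table's ranks of the probes correlated at 1.0 (Spearman, rounded) with those of the median signal of the first listed spot. That signal has the background left in, so 1 spot of 8 appears to stand for each of these probes. For the 5p arm, averaged over both probes, the authors' values were 43.0, 41.5 and 47.4 in arterial and 43.9, 43.1 and 48.6 in venous plasma of rats 1, 2 and 3. The arterial minus venous difference was -0.815, -1.61 and -1.19 units of intensity. Probe A_26_P00001367 was negative in all 3 rats. The authors' values for it were 40.6, 38.8 and 41.0 in arterial and 44.3, 41.3 and 47.7 in venous plasma. The other probe had 45.5, 44.3 and 53.8 in arterial and 43.5, 45.0 and 49.5 in venous plasma. It was higher in arterial plasma in rats 1 and 3, where the negative sign came from A_26_P00001367 alone. In rat 2 both probes were lower in arterial plasma.

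The first listed spot of A_26_P00001367 was the only one of its 8 at which the venous array was brighter in all 3 rats. There the median spot signal was 41, 39 and 39 in arterial and 45, 41 and 44 in venous plasma of rats 1, 2 and 3. Over all 8 places of this probe the median signal was higher in arterial plasma in 9 of 24 comparisons within rats, higher in venous plasma in 10, and equal in 5. With the processed intensity, the normalized log2 difference of this probe was -1.35 from its first spot alone, and 0.25, with both signs among rats, from the other spots. Those values are all at background.

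**Figure D3:**
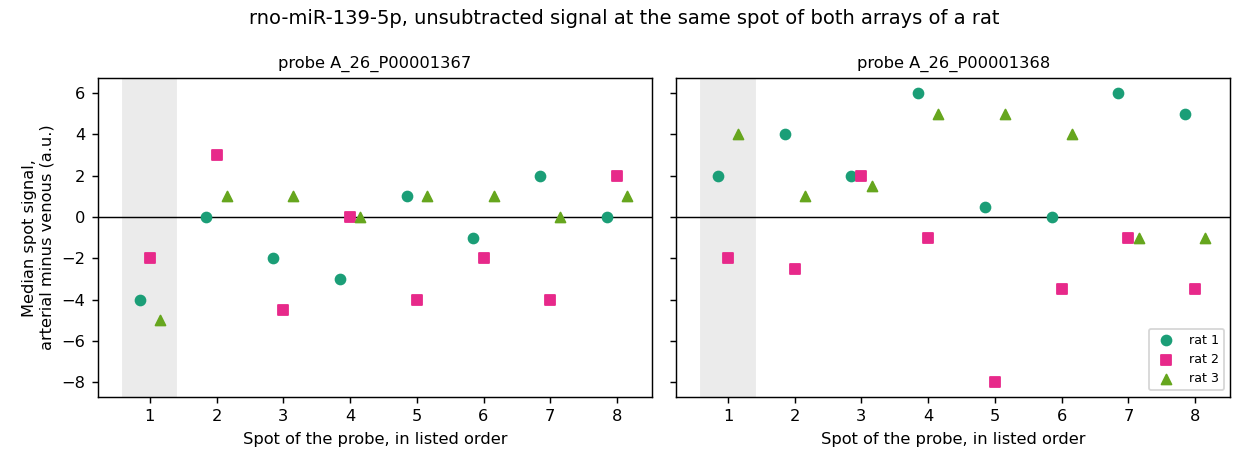
Difference in median spot signal (arterial minus venous, arbitrary units, background not subtracted) at each of the 8 listed spots of both rno-miR-139-5p probes, 1 symbol for each rat. At the first listed spot (grey) probe A_26_P00001367 is negative in all 3 rats, and at no other spot of either probe do all 3 rats lie below 0.

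The table was then rebuilt 8 times, each time with the next listed spot of every probe, by quantile normalization of the median signals over all probes. Probes with fewer than 8 spots reused theirs in order (528 probes had 4 spots, 58 had 5 and 29 had 6). These settings were added with the data in view, and the levels for the first spot differ from the authors' by up to 16.0 for a 3p probe and 3.17 for a 5p probe. For the 5p arm, the first spot gave higher venous values in all 3 rats, 3 of the 8 spots gave higher arterial values in all 3 rats, and the other 4 were mixed. The ratio of the arterial to the venous mean ran from 0.978 with the first spot to 1.06 with the second. For the 3p arm each of the 8 spots gave higher arterial values in all 3 rats, with ratios between 1.37 and 1.44. As the mean of both its probes, the 3p arm thus kept its direction whichever spot was used. The direction of the 5p arm, taken in the same way, changed with the spot.

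**Figure D4:**
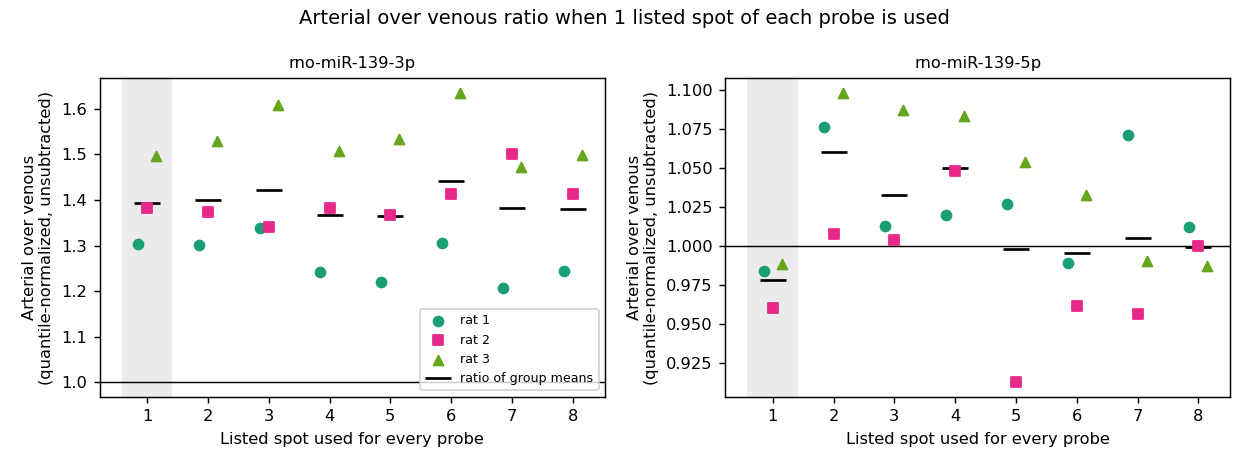
Ratio of arterial to venous intensity of both arms when only the first, second, and so on to the eighth listed spot of every probe is used (median spot signal, quantile normalized, background not subtracted), with 1 symbol for each rat and a bar for the ratio of the group means; neither vertical axis starts at 0. For rno-miR-139-3p all ratios of means lie between 1.37 and 1.44, and for rno-miR-139-5p they lie between 0.978 and 1.06, with the lowest at the first spot (grey).

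The 3p ratios were smaller in values that still hold the background. For the 4 probes, the median spot signal exceeded the processed intensity by 38.7 to 43.8 on every array. For A_26_P00001372 the arterial to venous ratio in rats 1, 2 and 3 was 1.77, 1.48 and 1.96 in the median spot signal, and 1.44, 1.66 and 1.76 in the authors' table. In the processed intensity it was 3.03, 2.13 and 4.56, as given above, where arrays were not scaled to each other. The 5p probes, at 10.4 or less in processed intensity on every array, lay far under that offset.

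The arms of miR-139 lay far apart compared with those of other hairpins. Of 281 hairpins with both arms on the array, 23 had both arms detected on at least 1 array. In miR-139 the log2 difference of the 3p arm exceeded that of the 5p arm by 1.19, and 1 of the 23, miR-125a, had a wider gap in size (-1.24). The median gap was 0.48, and in 11 of the 23 the arms differed in sign. Over the 8 hairpins with both arms detected on all 6 arrays, to which miR-139 does not belong, the median was 0.32. The hairpin was chosen because its arms stood on opposite sides, and its 5p value is at background, so this place is a description of the gap only.

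**Figure D5:**
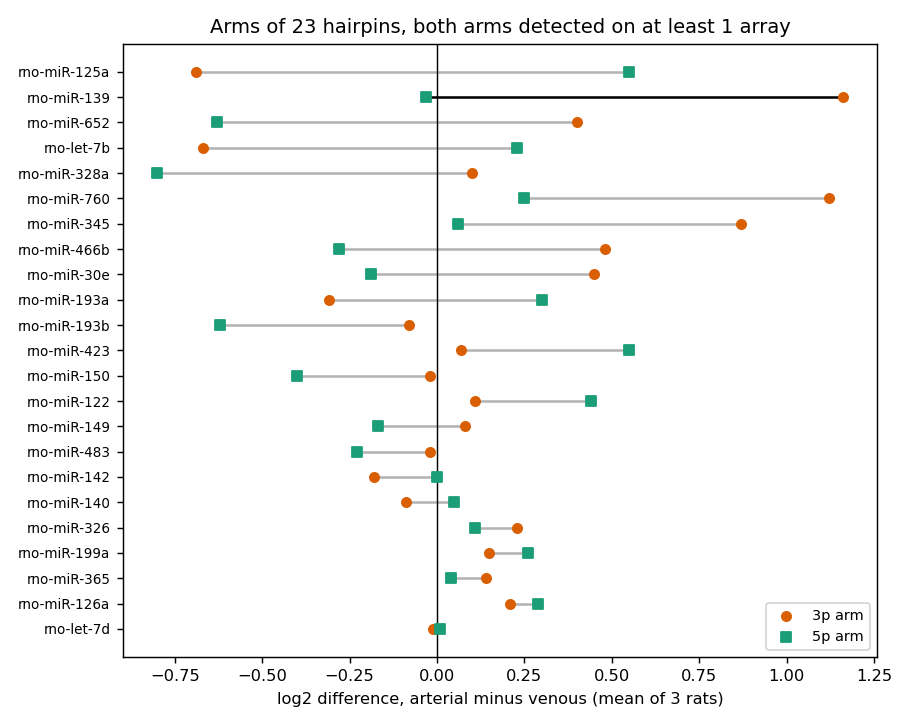
Mean log2 difference (arterial minus venous, 3 rats) of the 3p arm (circles) and the 5p arm (squares) of the 23 hairpins with both arms detected on at least 1 array, ordered by the size of the gap. The line of miR-139 (black) runs from -0.03 to 1.16, and that of miR-125a is the only longer one.

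The pattern of rno-miR-139-3p over the 6 samples was set beside those of other microRNAs. Among the other 125 microRNAs detected on all arrays, likeness was measured as the mean absolute difference of log2 levels after each was centred on its own mean. The 5 nearest were rno-miR-451-5p (0.45), rno-miR-423-5p (0.45), rno-miR-10b-5p (0.50), rno-let-7i-5p (0.50) and rno-miR-874-3p (0.50), and the median over the 125 was 0.70. Their correlations with the 3p arm over the 6 arrays were 0.57, 0.69, 0.74, 0.36 and 0.47. How near other microRNAs lie to their own nearest was not computed, so these distances are not called near or far. The log2 differences of the 5 between vessels were 0.26, 0.55, 0.20, 0.16 and 0.17, each under that of the 3p arm, which was chosen for its difference. The erythrocyte microRNA rno-miR-451-5p stood at 10.49 in 5 of the 6 samples, a value that quantile normalization gives to any microRNA of that rank, so neither its level nor its nearness to the 3p arm shows a stable amount. The 6 samples share 3 rats and 2 slides.

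Marker lists of blood cells and organs had differences of both signs among the rats, and the liver list in rat 2 exceeded the 3p arm's 1.07. The summed normalized level of 5 erythrocyte microRNAs, of which 4 were detected on all arrays and rno-miR-144-5p on none, differed between arterial and venous plasma by -0.08, -0.23 and 0.41 (log2) in rats 1, 2 and 3, against 0.80, 1.07 and 1.59 for the 3p arm. It ranged from 10.99 to 11.14 in arterial and from 10.73 to 11.22 in venous plasma, and rno-miR-451-5p, whose value is set by its rank, makes up much of it. The 4 platelet and leukocyte microRNAs, all detected on all arrays, differed by -0.40, -0.20 and 0.07, with ranges of 8.94 to 9.86 and 9.34 to 9.80. The liver list differed by -0.34, 1.13 and 0.28 (ranges 6.21 to 9.19 and 6.56 to 8.06), with 2 of 3 detected on all arrays and rno-miR-194-5p on none. The muscle list differed by 0.17, -0.11 and -0.06 (ranges 4.40 to 5.56 and 4.41 to 5.62), and 4 of its 6, among them rno-miR-1-3p and rno-miR-133a-3p, were detected on no array. The endothelial arms of miR-126a differed by -0.12, 0.34 and 0.44 (ranges 4.99 to 5.75 and 5.02 to 5.41). None of the 20 markers passed the cutoff of 0.025 in limma in either direction, and the list medians of 0.07, -0.09, 0.44, -0.09 and 0.25 stand beside a median of 0.0 over all microRNAs. The part of these cells and organs in the 3p difference was not tested.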

How the data were processed

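Plasma microRNAs of 3 rats were measured on 6 arrays, 3 arterial and 3 venous, grouped by the sample titles. Per the file headers, Feature Extraction 10.7.3.1 wrote the intensity of each spot. The processed intensity has the program's own background estimate subtracted and no scaling between arrays. The submitters' processing notes name version 11.0.1.1. The authors also deposited 1 quantile-normalized linear intensity for each of 1806 probes, made in GeneSpring. The array files hold no mean spot signal, so median signals were used for normexp. Unflagged spots were averaged by probe and microRNA, the arrays quantile normalized over all microRNAs, values under 1 set to 1, and log2 taken. Limma 3.58.1 in R 4.3.3 was fitted to all microRNAs with rat as block, as the study's methods used a paired test. Replicate numbers in the titles were read as rat numbers to pair the samples by animal. Deviations from the group means correlated at 0.64 to 0.80 within these pairs, and differently numbered samples were not compared. Tables and figures used Python 3.11.15, and the fit was tested on simulated data. Members and lists were chosen with earlier results of these data known. The rule for named microRNAs was the arms, the 5 nearest in pattern to the 3p arm, microRNAs with either seed (none) and the marker lists; miR-125a and the microRNAs with shared runs were named after their values were seen. Nothing says that spots or probes are separate samples, and 3 rats limit the precision. Depth does not apply to intensities. By quantitative PCR on newly sampled rats, the study also reported rno-miR-139-3p as higher in arterial plasma. Its PCR did not include rno-miR-139-5p. The quantitative PCR was not analysed here.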

Additional observations from a re-analysis of the deposited data

How the results depend on the processing

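For rno-miR-139-3p the arterial minus venous value (log2) was positive in all 24 alternatives run. The settings that keep the background, or add an offset after correcting for it, gave smaller values. It was 1.16 in the setting reported and 1.64 without normalization between arrays (where the 126 microRNAs detected on every array shifted by 0.40). With the median spot signal it was 0.45. Normexp on that signal, which corrects for the local background and then adds an offset of 50, gave 0.39. In the authors' table the value was 0.52. With the first to the eighth listed spot in turn (median signal) it was 0.48, 0.48, 0.51, 0.46, 0.45, 0.53, 0.47 and 0.47. Without each rat in turn it ran from 0.94 to 1.33, and the value of rno-miR-139-5p from -0.28 to 0.13. The value of rno-miR-139-5p ranged from -0.35 to 0.33 over its alternatives and had no fixed sign. A floor of 10 put all its values at the floor and gave none.

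Of all microRNAs, 6 passed the unadjusted cutoff, 4 of them higher in arterial plasma. The count was 16 with the median spot signal (12 of them arterial), 13 with normexp (8), 11 with the first listed spot (7), 10 with the median over spots (6), 11 with the brightest probe (8), 13 with a floor of 0.1 (10), 2 with a floor of 10 (0), 12 in the authors' table (8) and 3 over microRNAs detected on all arrays (3). Without each rat in turn it ran from 17 to 33. Scaling to the 75th percentile gave 4 arterial and 5 venous over detected microRNAs, and 2 and 2 over all. With slide as a block 2 arterial and 3 venous passed. Without the rat as a block (no replicate block, unpaired) 5 passed. The methods' paired t-test passed 4 when run on the log2 levels normalized here, not on the authors' values. The adjusted count was 0, and 1 in a fit restricted to the 201 detected on any array. Normexp on the mean spot signal was not run. The cause of these changes was not tested. Normexp, the single listed spots and the counts of places were chosen after seeing the data.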
